A study of Mus musculus with 2 samples.

Results

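The 41 genes described here carry glucose into cells, break it down to lactate and sense oxygen. They are glucose and lactate transporters, the enzymes of glycolysis with their isozymes, the kinases that hold pyruvate dehydrogenase back, and the hypoxia-inducible factor (HIF) pathway with some of its targets. They were listed by name. All 41 were found among the 43346 Ensembl genes of the deposited tables.

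Glycolysis converts glucose to pyruvate in the cytosol, and lactate dehydrogenase turns pyruvate into lactate. Many steps can be run by several isozymes, encoded by separate genes, which differ between tissues such as muscle, liver and brain. HIF is a transcription factor whose alpha subunit is hydroxylated by oxygen-dependent enzymes and then destroyed through the VHL protein. When oxygen is low the alpha subunit persists, pairs with ARNT and raises transcription of many glycolytic genes. The limb bud is a rapidly growing tissue in which cartilage condensations become free of vessels, and both pathways have been studied there.

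Total RNA was sequenced from limbs of B6NCrl mouse embryos at embryonic day 12.5. There was 1 group with 2 biological replicates: replicate 1 pooled 88 embryos and replicate 2 pooled 68 embryos, both of mixed sex, and each library started from 10 ng of RNA longer than 200 nt. The labels neither separate forelimb from hindlimb nor name a treatment, mutation or further age, so genes are compared within the limb and between the libraries. In pools of whole tissue, a smaller number of cells of one type and less RNA per cell cannot be told apart.

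Expected counts assigned to Ensembl genes summed to 28832310 in replicate 1 and 29249374 in replicate 2. Marker genes of limb mesenchyme were detected for 6 of 6 listed genes, with summed levels of 856 and 902 TPM in replicates 1 and 2. Cartilage markers summed to 882 and 758 TPM. By the exact binomial test, 3 of the 6 were at least 2-fold higher in replicate 1, against 0.840% of all tested genes. With no limit on the fold, that test called 5 of the 6 higher in replicate 1, against 9.30% of all tested genes. Sox9, which was not called, was at 208 and 206 TPM. edgeR's exact test called 2 of the cartilage markers higher in replicate 1. Skeletal muscle markers summed to 705 and 686 TPM, endothelial markers to 173 and 171 TPM, ectodermal markers to 312 and 291 TPM, and red blood cell markers to 8539 and 8512 TPM. Neuron markers summed to 45.6 and 60.4 TPM. By the same test, 3 of the 6 were at least 2-fold higher in replicate 2, against 1.01% of all tested genes. Of these 3, Nefl was at 4.19 and 10.5 TPM, Prph at 0.16 and 3.94 TPM and Elavl3 at 0.01 and 0.17 TPM. With no limit on the fold, the exact binomial test called 5 of the 6 higher in replicate 2, against 7.10% of all tested genes. Gap43 was lower in replicate 2, at 24.4 and 22.6 TPM, and edgeR's exact test called 2 of the neuron markers higher in replicate 2. No marker was at 0 in both libraries. TPM is the deposited relative abundance scaled to transcript length, and pairs of values are replicate 1 and then replicate 2.

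Of the 41 genes, 40 reached 1 TPM in both libraries, the limit used for detection. Over all Ensembl genes 33.5% reached it, and over protein-coding genes 59.2%. The median of the 40 detected genes was 45.1 TPM, against 18.3 TPM over all detected Ensembl genes and 21.9 TPM over detected protein-coding genes. The enzyme genes Gapdh, Eno1, Pkm and Ldha were above 1000 TPM and ranked 35, 52, 63 and 64 among Ensembl genes. At the low end, 8 genes lay between 1 and 10 TPM, and Car9 was at 1.06 and 0.90 TPM. Together the 41 genes took 1.05% of the gene counts of replicate 1, with an exact 95% interval from 1.04 to 1.05, and 1.08% of those of replicate 2, with one from 1.08 to 1.09. Ordered by mean level, 27 of the 40 neighbouring pairs of genes had ranges that did not overlap between libraries and 13 did.

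**Figure D1:**
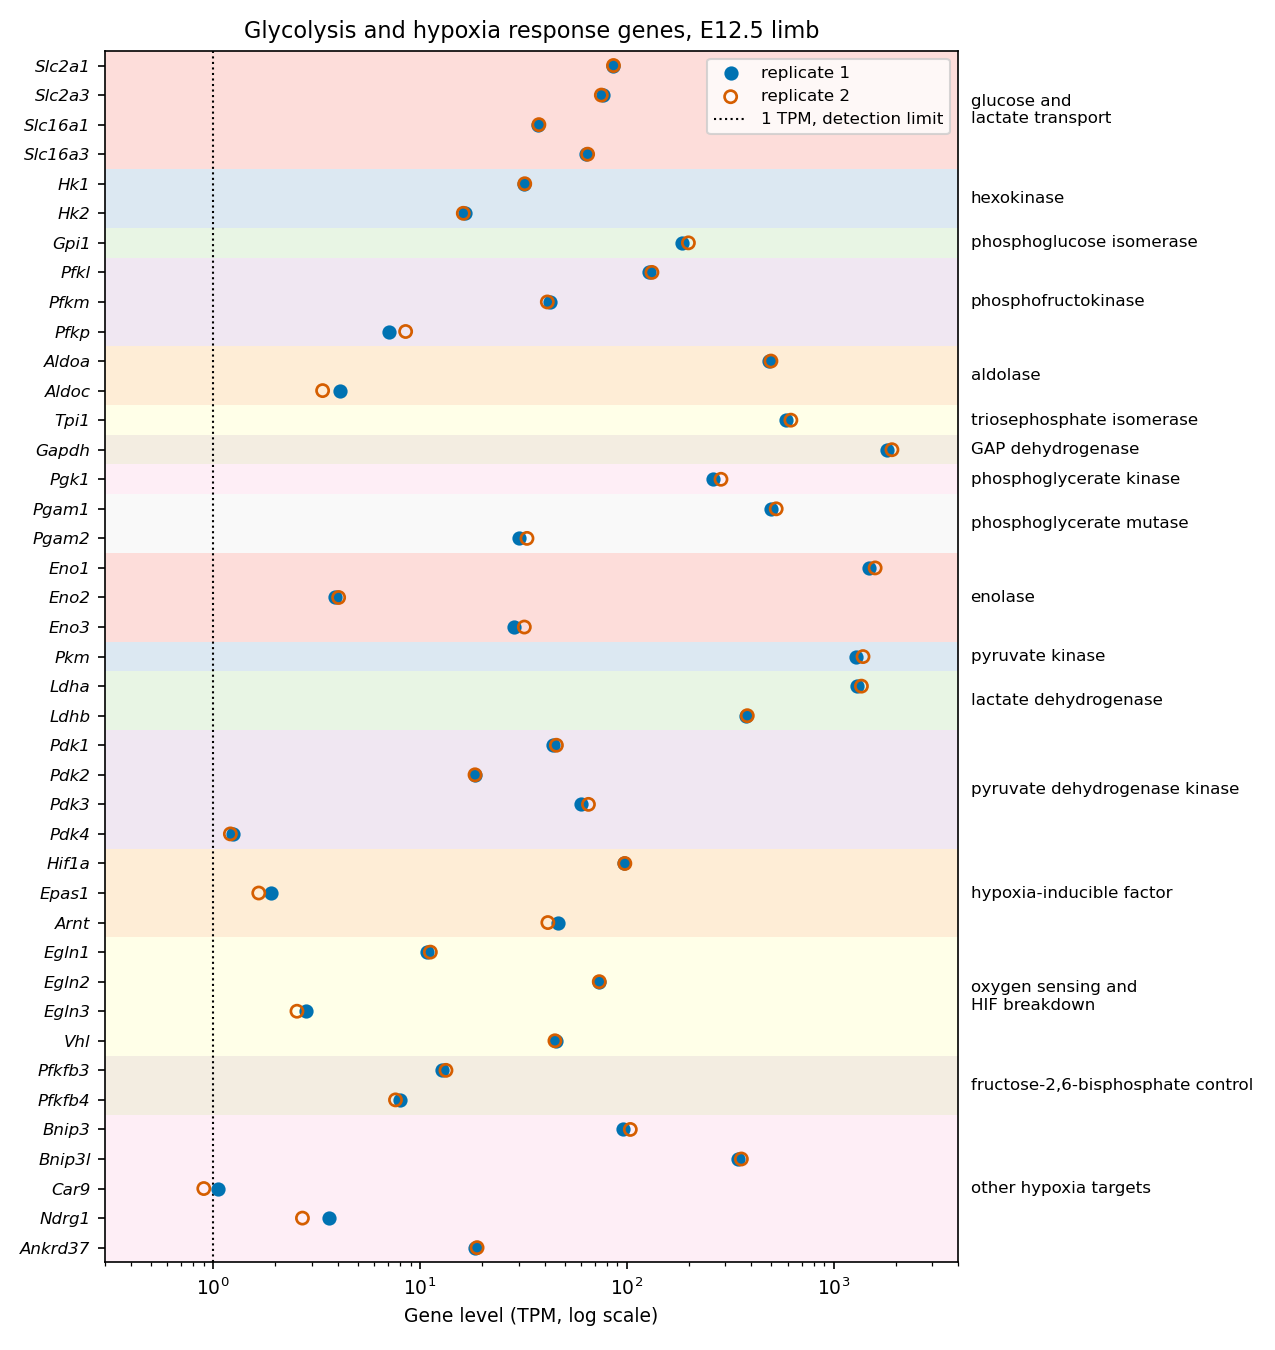
Level of each of the 41 genes in TPM (log axis) in replicate 1 (filled) and replicate 2 (open), with genes grouped by role down the page. Gapdh, Eno1, Pkm and Ldha lie above 1000 TPM, Car9 straddles the dotted line at 1 TPM, and the symbols of both libraries lie close together for nearly all genes.

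RNA of the main glucose transporters was divided almost evenly between the genes Slc2a1 and Slc2a3. Slc2a1, which encodes the widespread transporter GLUT1 (ENSMUSG00000028645.6, chromosome 4, 119108711 to 119137983, plus strand, mm10), was at 85.9 and 86.2 TPM. Slc2a3, which encodes the high-affinity transporter GLUT3 known from neurons, was at 76.9 and 75.3 TPM. The values did not overlap, and Slc2a1 held 53.1% ± 0.435 of their sum (SD, n = 2). Counts without length scaling gave the opposite order, with a log2 ratio of Slc2a1 over Slc2a3 of -0.41 in place of 0.18 ± 0.03. Slc2a4, the insulin-responsive transporter of muscle and fat, was at 29.3 and 28.6 TPM, and Slc2a2, the transporter of liver and pancreas, at 0.11 and 0.03 TPM.

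Lactate and other monocarboxylates cross the membrane through transporters that work with a shared chaperone. Slc16a1, which encodes MCT1, was at 37.25 and 37.58 TPM. Slc16a3, which encodes MCT4, a transporter known for lactate export from glycolytic cells, was at 63.45 and 64.66 TPM. Slc16a3 thus stood 1.71-fold above Slc16a1 per length, while counts alone placed Slc16a1 above Slc16a3 (log2 ratio 0.27, against -0.77 ± 0.01 in TPM). The main transcript was 4426 nt long for Slc16a1 and 2272 nt for Slc16a3, so the order of these genes rests on the length scaling.

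The first enzyme, hexokinase, traps glucose by phosphorylation and had the lowest total of the 11 steps from hexokinase to lactate dehydrogenase. Hk1, the form common in brain and red blood cells, was at 31.7 and 32.1 TPM. Hk2, the form known from muscle and from growing cells, was at 16.5 and 16.2 TPM, so that Hk1 held 66.1% ± 0.518 of the total. Of the Hk2 level, 51.4% and 51.7% was assigned to a noncoding transcript of 594 nt (ENSMUST00000168725.1), all 594 of whose bases lie in exons of protein-coding Hk2 transcripts. Protein-coding transcripts held 91.2% and 91.0% of the Hk2 counts and came to 8.04 and 7.82 TPM. Hk3, a further hexokinase gene, was at 0.31 and 0.34 TPM.

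Gpi1, which interconverts glucose and fructose phosphates, was at 185 and 199 TPM. Phosphofructokinase, the main control point of the pathway, is built from liver, muscle and platelet subunits. Its liver-type gene Pfkl was at 128 and 132 TPM, its muscle-type gene Pfkm at 42.5 and 41.3 TPM, and its platelet-type gene Pfkp at 7.08 and 8.52 TPM. These ranges were far apart, and the shares were 72.3% ± 0.464, 23.3% ± 0.946 and 4.34% ± 0.482. An exon of Pfkp overlaps one of Pitrm1 on the opposite strand over up to 748 nt, and Pitrm1 was at 82.4 and 78.0 TPM. No source used here states the strand setting of the quantification, and how far Pfkp counts hold Pitrm1 reads was not tested.

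The enzymes Pfkfb3 and Pfkfb4 set the level of a fructose bisphosphate that activates phosphofructokinase. Pfkfb3 was at 12.8 and 13.4 TPM, and Pfkfb4 at 7.99 and 7.61 TPM, a log2 ratio of 0.74 ± 0.09. Their relatives Pfkfb1 and Pfkfb2 were in the same range, at 5.38 and 6.11 TPM and at 5.52 and 7.51 TPM.

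From aldolase onward levels were higher. Aldoa, the aldolase of muscle and most embryonic tissues, was at 486 and 498 TPM and held 99.2% ± 0.116 of the aldolase total. Aldoc, the brain aldolase, was at 4.11 and 3.38 TPM. Tpi1, which interconverts the triose phosphates made by aldolase, was at 586 and 622 TPM (chromosome 6, 124810586 to 124814296, minus strand). Pgk1, which makes ATP from bisphosphoglycerate and lies on the X chromosome, was at 260 and 285 TPM, while Pgk2, its testis paralog, was listed at 0. Bpgm, which makes the haemoglobin effector bisphosphoglycerate in red blood cells, was at 41.5 and 41.9 TPM.

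Gapdh, the oxidising step of the pathway and a common normalisation gene, had the highest gene level of the set, at 1823 and 1916 TPM (chromosome 6, 125161715 to 125166467, minus strand). Of that level, 60.4% and 64.1% sat in a single noncoding transcript of 483 nt (ENSMUST00000182115.1). All 483 bases of it lie in exons of protein-coding Gapdh transcripts. Protein-coding transcripts took 67.0% and 63.3% of the Gapdh counts but came to 706 and 668 TPM, since TPM divides by length and the noncoding transcript is short. On that basis Gapdh was the fourth of the 41 genes and Eno1 the first. Whether the short transcript exists in the limb or takes reads of the coding ones was not tested.

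Phosphoglycerate mutase and enolase each have a muscle isozyme, and both muscle genes were present. Pgam1, the widespread mutase, was at 499 and 528 TPM, and the muscle gene Pgam2 at 30.04 and 32.9 TPM, which left Pgam1 with 94.2% ± 0.137 of the step. Eno1, the widespread enolase, was at 1486 and 1589 TPM and held 97.8% ± 0.0618 of the enolase total. Eno3, the muscle enolase, was at 28.43 and 31.95 TPM, and Eno2, the neuronal enolase, at 3.86 and 4.04 TPM. Muscle markers were present in both libraries, with the regulator Myog at 97.9 and 91.2 TPM, whereas Ckm, the creatine kinase of mature muscle, was at 0.24 and 0.20 TPM. Protein-coding transcripts of Eno2 came to 1.27 and 0.58 TPM, and a transcript with a retained intron held 33.8% and 45.3% of its level. The part of muscle cells in Pgam2, Eno3 and Pfkm, and of nerve in Eno2 and Aldoc, was not tested.

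Pyruvate kinase RNA came almost wholly from Pkm, at 1286 and 1388 TPM, whereas Pklr, the gene of liver and red blood cells, was at 0.29 and 0.20 TPM. Pkm makes M1 and M2 enzymes by choosing either of a pair of mutually exclusive exons. M1 is the form of adult muscle and brain, and M2 is typical of embryonic and dividing cells. The exons are shown because they are what tells the forms apart. Each is exon 9 of 11 and 167 nt long, the M1 exon at chr9:59675029-59675195 and the M2 exon at chr9:59675568-59675734, both on the plus strand of mm10. They are written 5′ to 3′, with capitals at the 64 positions where they differ.
Pkm M1 exon: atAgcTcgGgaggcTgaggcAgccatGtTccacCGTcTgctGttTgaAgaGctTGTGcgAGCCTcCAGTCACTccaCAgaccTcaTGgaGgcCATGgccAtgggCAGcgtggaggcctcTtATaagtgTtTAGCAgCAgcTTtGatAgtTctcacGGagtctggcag
Pkm M2 exon: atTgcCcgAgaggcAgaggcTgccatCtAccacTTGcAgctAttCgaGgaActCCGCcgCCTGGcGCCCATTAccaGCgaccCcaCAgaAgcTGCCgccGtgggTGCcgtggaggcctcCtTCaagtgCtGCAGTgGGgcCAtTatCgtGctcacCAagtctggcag
The exons were identical at 103 of 167 positions (61.7%), so reads that fall in them can be told apart. The transcript with the M2 exon (ENSMUST00000034834.11) was at 1253 and 1350 TPM, and the transcript with the M1 exon (ENSMUST00000163694.2) at 32.7 and 38.1 TPM. M2 held 97.5% of Pkm in replicate 1 and 97.3% in replicate 2 (97.4% ± 0.145, n = 2), or 36.9-fold more than M1. The M1 form, at a mean of 35.4 TPM, was near the levels of the muscle isozyme genes Pgam2 and Eno3.

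Lactate dehydrogenase, a tetramer of subunits from separate genes, was dominated by the subunit known from anaerobic tissue. Ldha, which encodes the muscle-type subunit, was at 1295 and 1364 TPM (chromosome 7, 46841475 to 46855627, plus strand). Ldhb, which encodes the heart-type subunit, was at 377 and 383 TPM, so that Ldha held 77.8% ± 0.473 of the total and stood 3.50-fold above Ldhb. Ldhc, the testis gene, was at 0.13 and 0 TPM.

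Summed over the 19 enzyme genes, the 11 steps from hexokinase to lactate dehydrogenase came to 8576 TPM in replicate 1 and 9076 TPM in replicate 2. Hexokinase was lowest with 48.3 ± 0.0283 TPM, followed by phosphofructokinase (180 ± 3.52) and phosphoglucose isomerase (192 ± 9.43). The remaining steps were higher: phosphoglycerate kinase was at 273 ± 17.9 TPM, aldolase at 496 ± 7.94 TPM, the mutase at 545 ± 22.3 TPM and triosephosphate isomerase at 604 ± 25.4 TPM. The 4 highest were pyruvate kinase (1337 ± 72.3), enolase (1572 ± 75.8), lactate dehydrogenase (1710 ± 52.9) and Gapdh (1870 ± 66.1), the last 38.7-fold above hexokinase. The first 3 steps together held 4.79% and 4.73% of the sum. With protein-coding transcripts only, the sum was 7530 TPM, hexokinase stayed lowest at 39.2 TPM, and lactate dehydrogenase was highest at 1697 TPM in place of Gapdh at 687 TPM.

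**Figure D2:**
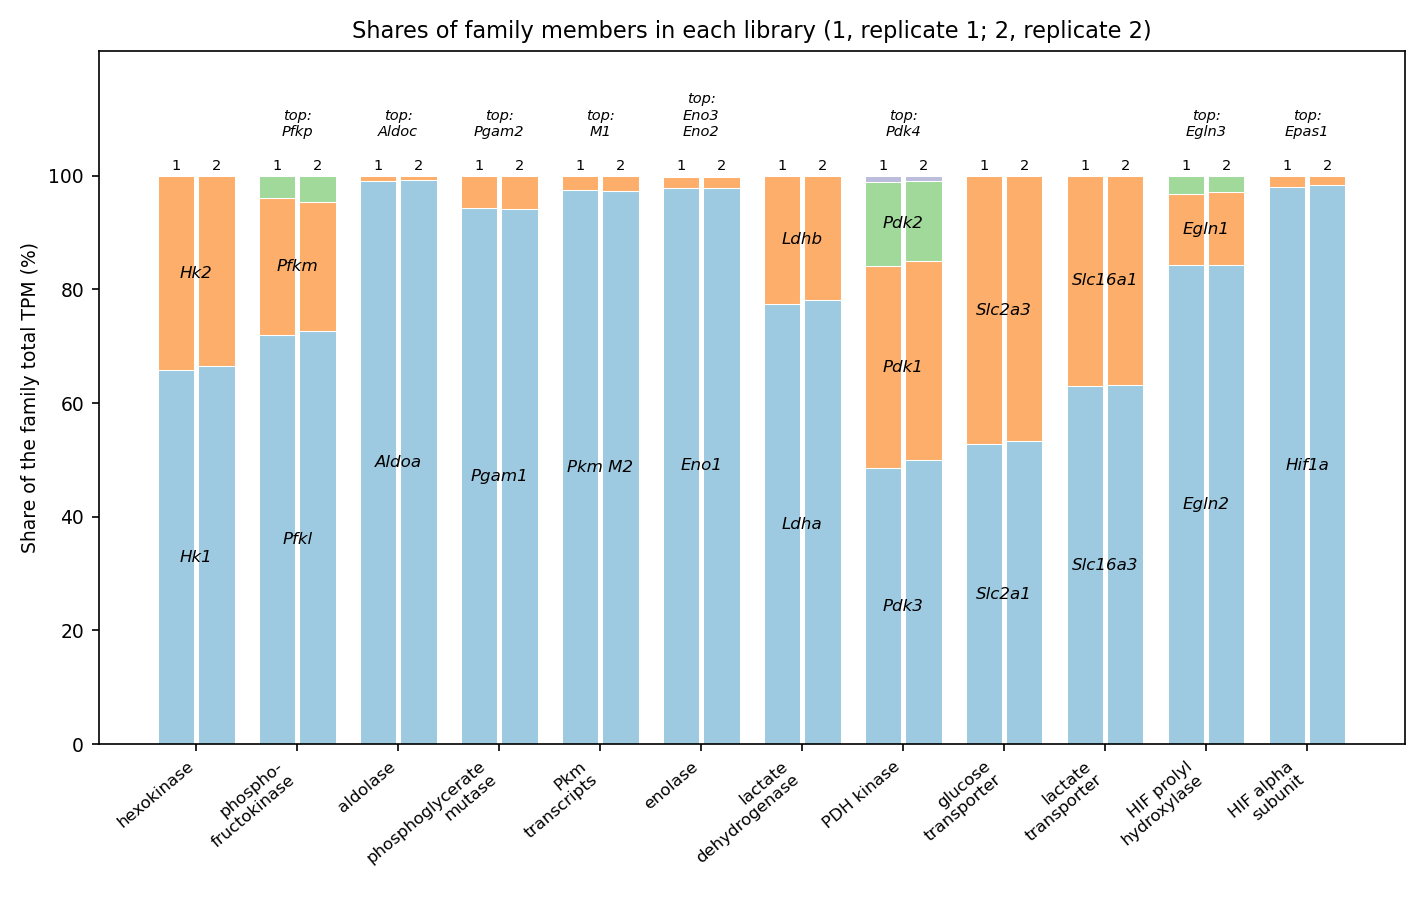
Share of each family's summed TPM (vertical axis, percent) held by each gene, with a bar for replicate 1 and a bar for replicate 2 in every family and the Pkm transcripts M2 and M1 beside them. Aldoa, Eno1, Pkm M2, Hif1a and Pgam1 each hold over 90%, whereas hexokinase, the transporters and the pyruvate dehydrogenase kinases are divided among several genes.

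The pyruvate dehydrogenase kinases phosphorylate pyruvate dehydrogenase and so hold back the entry of pyruvate carbon into the citric acid cycle. Pdk3 was the highest by gene level, at 60.1 and 65.3 TPM, and held 49.3% ± 1.02 of the family. Pdk1, a known HIF target, was at 44.05 and 45.67 TPM, Pdk2 at 18.43 and 18.45 TPM, and Pdk4, a gene of fasting, at 1.25 and 1.21 TPM. Pdk1 was the sole gene whose highest transcript differed between libraries, among the 29 genes with a mean of at least 5 TPM and at least 2 annotated transcripts. In replicate 1 it was the coding transcript of 5185 nt (40.3% of the gene), and in replicate 2 a noncoding one of 2972 nt (33.9%). Protein-coding Pdk1 came to 16.4 ± 1.93 TPM and protein-coding Pdk2 to 17.4 ± 0.502 TPM (SD, n = 2), and these ranges overlap. Counts without length scaling placed Pdk1 above Pdk3 (log2 ratio of Pdk3 over Pdk1 -0.19, against 0.48 ± 0.05 in TPM). With protein-coding transcripts only, Pdk3 was at 61.0 ± 1.76 TPM and the log2 ratio was 1.90.

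Mpc1 and Mpc2, subunits of the mitochondrial pyruvate carrier, were at 98.0 and 89.9 TPM and at 98.5 and 104 TPM. Pdha1 and Pdhb, subunits of pyruvate dehydrogenase, were at 69.3 and 68.5 TPM and at 147 and 145 TPM. Of 22 further genes of glycolysis and pyruvate use, 13 were detected, a share close to the 59.2% of all protein-coding genes. Those not detected included Slc2a2, Hk3, Gapdhs, Pgk2, Pklr, Ldhc and Gpd1.

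Among HIF subunits, Hif1a (ENSMUSG00000021109.9, chromosome 12, 73901375 to 73947530, plus strand) was at 96.8 and 97.9 TPM. Epas1, which encodes the alpha subunit known from endothelium and other cell types, was at 1.91 and 1.66 TPM, while 5 of 5 endothelial markers were detected. Hif1a held 98.2% ± 0.190 of the sum of Hif1a and Epas1 (SD, n = 2). Arnt, the partner of both, was at 46.5 and 41.5 TPM, 2.21-fold below Hif1a. Hif3a, which encodes a related alpha subunit, was at 8.77 and 9.36 TPM, and with it in the sum Hif1a held 90.1% and 89.9%. Arnt2, a neural paralog of Arnt, was at 17.8 and 15.9 TPM. RNA levels do not show the amount of HIF protein, which is largely set by its breakdown.

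The HIF prolyl hydroxylases were unequal. Egln2 was at 73.15 and 73.60 TPM and held 84.3% ± 0.0590 of the family. Egln1, the form best known for setting HIF levels, was at 10.8 and 11.2 TPM, and Egln3, itself a HIF target, at 2.81 and 2.54 TPM. Vhl, the recognition subunit of the ligase that marks hydroxylated HIF, was at 45.6 and 44.9 TPM. The ligase partners Rbx1 and Cul2 were at 240 and 251 TPM and at 66.25 and 60.96 TPM. Hif1an, which hydroxylates an asparagine of HIF, was at 38.2 and 39.6 TPM.

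The HIF targets outside glycolysis differed widely in level. Bnip3 and Bnip3l, which mark mitochondria for removal, were at 96.05 and 104.02 TPM and at 345 and 358 TPM. Ankrd37, a small ankyrin repeat gene, was at 18.4 and 18.9 TPM, Ndrg1 at 3.61 and 2.70 TPM, and Car9, which encodes a carbonic anhydrase of hypoxic cells, at 1.06 and 0.90 TPM. Car9 rested on 31.5 and 32.6 expected counts, and the antisense gene Gm12454, which overlaps its exons, was at 3.21 and 2.74 TPM. Posterior mean TPM, the second estimate in the deposited tables, was 2.18 and 1.86 for Car9 and 5.65 and 5.13 for Ndrg1. How many of the Car9 counts come from the strand of Gm12454 was not tested. Of the 41 genes, 13 had an exon that overlaps another gene on the opposite strand. Ankrd37 exons overlap those of Ufsp2 on the opposite strand over up to 57 nt, and Ufsp2 was at 46.0 and 48.9 TPM. Protein-coding Ankrd37 came to 6.09 ± 1.54 TPM (SD, n = 2).

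The order of Bnip3 and Bnip3l depended on which transcripts were counted. Noncoding transcripts of 354 nt and 789 nt held 45.8% and 39.3% of the Bnip3l level in replicate 1, and 43.53% and 41.04% in replicate 2. Of their bases, 333 and 757 lie in exons of protein-coding Bnip3l transcripts. Protein-coding Bnip3l came to 49.8 and 50.8 TPM, against 93.4 and 100.3 TPM of protein-coding Bnip3, a log2 ratio of Bnip3 over Bnip3l of 0.94, in place of -1.81 ± 0.04 over all transcripts. The 6 genes Hk2, Gapdh, Eno2, Pdk1, Bnip3l and Ankrd37 had under 50% of their level in protein-coding transcripts in both libraries, and 30 genes had over 90%.

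**Figure D3:**
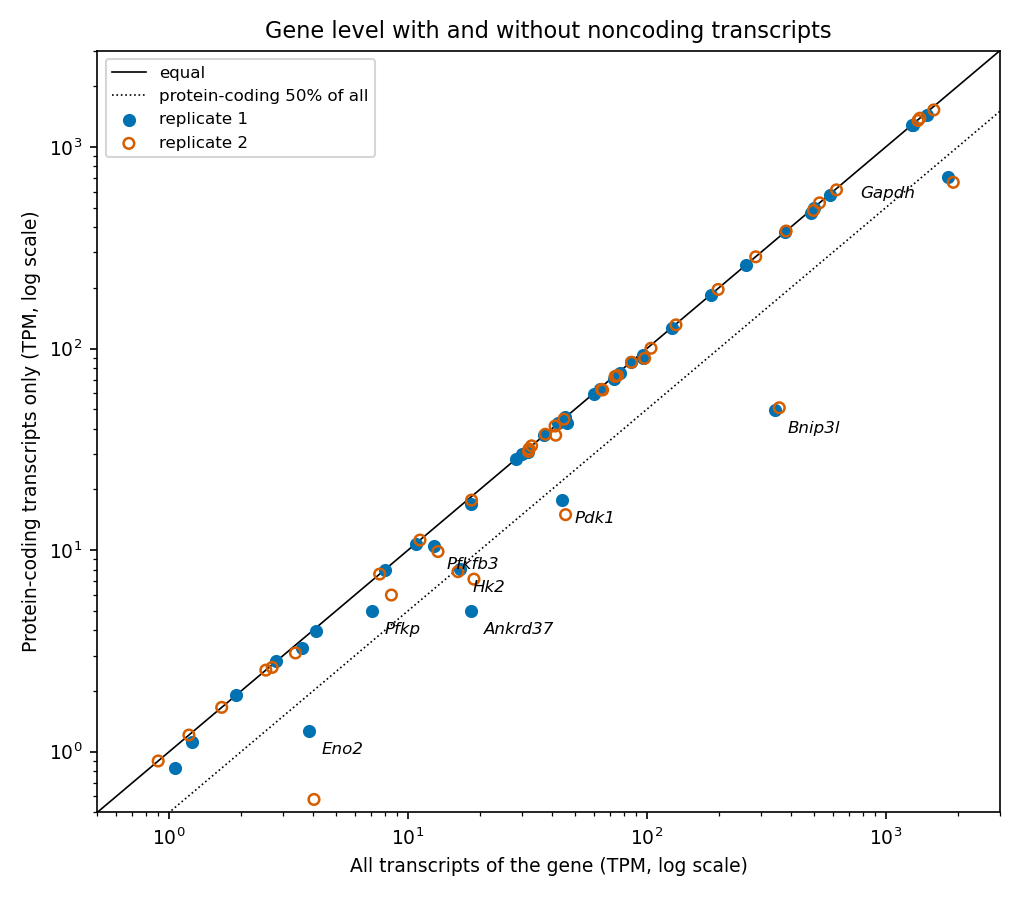
Level of each gene summed over its protein-coding transcripts (vertical axis, TPM, log) against the level over all its transcripts (horizontal axis, TPM, log) in replicate 1 (filled) and replicate 2 (open). The solid line marks equality and the dotted line 50%, and Gapdh, Bnip3l, Pdk1, Hk2, Ankrd37 and Eno2 lie below the dotted line in both libraries.

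Of 24 further genes of the hypoxia response, 21 were detected. The highest were Fam162a, a hypoxia-induced gene for a mitochondrial protein, at 245 and 264 TPM, and Rbx1, given above. Ddit4, an inhibitor of growth signalling, was at 75.9 and 77.2 TPM, Cul2 was given above, and P4ha1, a collagen prolyl hydroxylase subunit, was at 60.2 and 54.8 TPM. Vegfa, the main growth factor for vessels, was at 4.44 and 4.67 TPM.

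HIF binds a short core, ACGTG or GCGTG, in its target promoters. Windows from 250 bases before to 50 after annotated gene starts (RefSeq, GRCm38.p6) were available for 37 of the 41 genes, and either core occurred on either strand in 32 of them (86.5%). Of all 27025 genes with such a window, 46.7% held one. A gene can have several windows, and by window the shares were 41 of 52 (78.8%) in the set and 43.8% over all. Known HIF targets were among the genes listed by name, so these shares are a description and not a test. ACGTG on both strands of the same CACGTG counts on each strand. The genes whose windows held none were Gpi1, Tpi1, Pgam2, Eno2 and Vhl. The windows of the set were richer in G and C, with a median of 61.2% against 52.7% over all windows. Among windows of at least 60% G and C, 26 of 28 windows of the set (92.9%) and 69.2% of all windows held a core. The 250 bases before a RefSeq start are shown for Ldha, Bnip3 and Ankrd37, known HIF targets with at least 4 matches each in the window. They are written 5′ to 3′ on the strand of the gene, with every core in capitals. Their positions are chr7:46845554-46845803 (plus strand), chr7:138909507-138909756 (minus strand) and chr8:45999851-46000100 (minus strand). Ldha had 2 windows, with 7 and 2 matches, and the one with 7 is shown. The stretches of Ldha and Ankrd37 lie inside the GENCODE bounds of these genes (46841475 to 46855627 and 45996902 to 46005707), so they do not precede the outermost annotated start.
Ldha: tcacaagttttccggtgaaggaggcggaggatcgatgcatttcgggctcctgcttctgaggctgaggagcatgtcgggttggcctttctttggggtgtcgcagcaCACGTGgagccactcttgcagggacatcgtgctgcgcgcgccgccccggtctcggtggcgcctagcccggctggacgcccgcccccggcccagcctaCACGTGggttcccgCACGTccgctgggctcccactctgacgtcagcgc
Bnip3: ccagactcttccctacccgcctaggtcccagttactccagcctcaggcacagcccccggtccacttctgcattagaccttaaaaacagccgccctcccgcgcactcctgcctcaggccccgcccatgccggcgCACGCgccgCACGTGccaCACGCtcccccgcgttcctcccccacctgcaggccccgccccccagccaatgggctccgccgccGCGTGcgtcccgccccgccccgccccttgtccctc
Ankrd37: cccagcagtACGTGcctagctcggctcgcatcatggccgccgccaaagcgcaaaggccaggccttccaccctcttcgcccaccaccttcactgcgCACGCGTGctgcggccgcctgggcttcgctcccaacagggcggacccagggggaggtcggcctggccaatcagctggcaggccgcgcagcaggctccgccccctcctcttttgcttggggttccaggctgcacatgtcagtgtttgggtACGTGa
Ldha held 5 matches in this stretch, Bnip3 5 and Ankrd37 4. In Ldha they are 2 copies of CACGTG, each matched on both strands, and a CACGT. A match of these letters is a description of the sequence and not evidence that HIF binds there in the limb.

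Several of the most abundant enzyme genes have near-identical copies elsewhere in the genome, among which their reads could be divided. A search with the coding sequences at 90% identity over at least 100 nt found 238 other genes, of which 226 were annotated as pseudogenes, for 11 of the 41 genes. Gapdh alone had 200, with a summed level of 130.2 and 128 TPM, or 6.91% of the Gapdh level. That sum counts the whole level of each match, including genes that are not pseudogenes. An example is the protein-coding gene Peli2 (92.4% identity over 877 nt), at 8.29 and 7.47 TPM. Pgk1-rs7, a processed copy identical to Pgk1 over 1250 nt, was at 35.96 and 37.74 TPM, and the copies of Pgk1 came to 13.5% of its level. Gm4735, a copy of Eno1 at 99.6% identity, was at 30.9 and 38.1 TPM, and Pgam1-ps2, identical to Pgam1 over 762 nt, at 36.4 and 28.3 TPM. The Gapdh copies Gm13394 and Gm12070 were at 16.5 and 11.3 TPM and at 11.1 and 14.8 TPM. Of the copies, 25 were detected and 78 were listed at 0 in both libraries. Levels of these parents and copies are uncertain where the quantifier had to split reads between them.

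**Figure D4:**
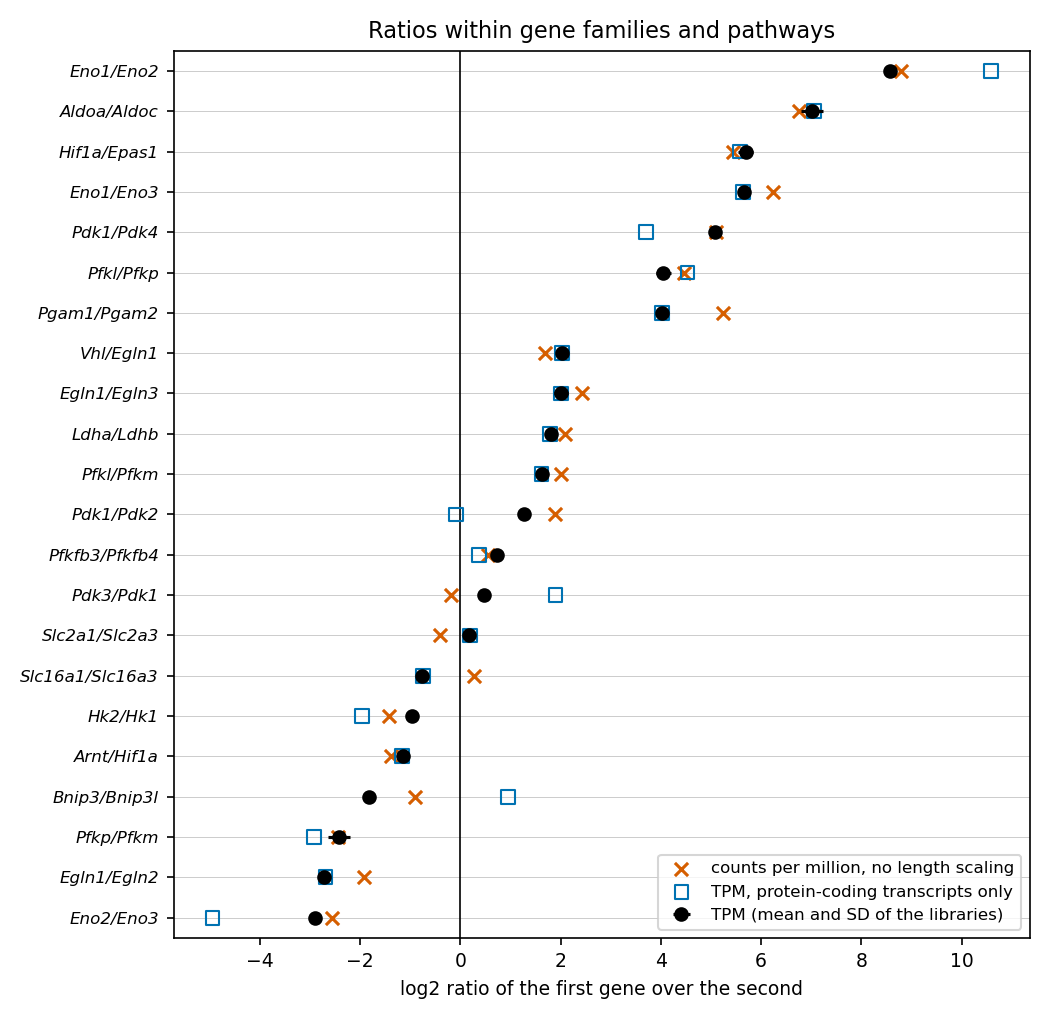
Log2 ratio of the first gene over the second (horizontal axis) for the 22 pairs, from TPM with the mean and SD of the libraries (black), from counts scaled to the library total without length scaling (crosses) and from TPM of protein-coding transcripts only (squares). Crosses fall on the other side of 0 from the black points for Slc2a1/Slc2a3, Pdk3/Pdk1 and Slc16a1/Slc16a3, and squares do so for Bnip3/Bnip3l and Pdk1/Pdk2.

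For all 22 pairs of related genes the direction was the same in both libraries. With 2 libraries an exact sign-flip test cannot give a p below 0.5, so these ratios are given with their spread and no test. The widest ratios were Eno1 over Eno2 (log2 8.57 ± 0.02), Aldoa over Aldoc (7.01 ± 0.22), Hif1a over Epas1 (5.69 ± 0.15) and Eno1 over Eno3 (5.67 ± 0.05). With protein-coding transcripts only, the log2 ratio of Eno1 over Eno2 was 10.58.

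Between the libraries, the 41 genes differed little. An exact conditional binomial test on counts, with Benjamini-Hochberg adjustment over 18580 genes, compared these 2 libraries and covers counting error only. No gene of the set was at least 2-fold higher in replicate 1 or in replicate 2 at an adjusted p under 0.05, against 0.840% and 1.01% of all tested genes. At an unadjusted p under 0.05, 10 genes of the set differed by any amount, where 27.3% of all tested genes did. Without the fold limit, 1 gene was higher in replicate 1 and 7 in replicate 2, where 9.30% and 7.10% of tested genes were called. Among the 9232 tested genes with a mean of at least 10 TPM, the level range of all these called genes, 1206 and 936 were called. With more counts, this test calls smaller folds. The gene higher in replicate 1 was Arnt, with 3122 and 2785 counts (log2 fold of replicate 1 over replicate 2 0.19, 95% exact interval 0.11 to 0.26, adjusted p = 2.14e-05 by the exact binomial test). Those higher in replicate 2 were Gpi1, Tpi1, Pgk1, Pgam1, Eno1, Pkm and Ldha, enzymes of the shared pathway, with log2 folds between -0.12 for Pgk1 and -0.06 for Ldha. Gapdh, with more counts than Gpi1, Tpi1, Pgk1 or Pgam1, had a log2 fold of 0.01 in counts, although its TPM was lower in replicate 1. Its noncoding transcript of 483 nt was at 1101 and 1228 TPM, whereas its protein-coding transcripts were higher in replicate 1, at 706 and 668 TPM. edgeR's exact test, whose dispersion came from these same libraries, called none of the 8.

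The median log2 fold of the 41 genes was -0.02, against 0.01 over all tested genes. Their median absolute log2 fold was 0.07, against 0.12 over all tested genes and 0.07 over tested genes of at least 10 TPM. The widest was 0.31, for Ndrg1, with 174 and 142 counts (adjusted p = 0.198 by the exact binomial test). Some cartilage and neuron markers moved between the libraries by more, as given above, and their part in these small differences was not tested. Of the 23 further hypoxia genes tested, 4 were higher in replicate 1 and 0 in replicate 2 by the exact binomial test without the fold limit, where 9.30% and 7.10% of all tested genes were called. edgeR's exact test called none of them. Lox, which crosslinks collagen, was among the 4 (21.4 and 16.1 TPM, log2 0.43), as were P4ha1 (log2 0.15), Arnt2 (0.18) and the haem oxygenase gene Hmox1 (0.26). Of the 18 further glycolysis and pyruvate genes tested, 0 were higher in replicate 1 and 1 in replicate 2, the phosphatase gene Pdp2 (13.2 and 15.9 TPM, log2 -0.26), shares no higher than those of all tested genes. edgeR's exact test did not call Pdp2.

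**Figure D5:**
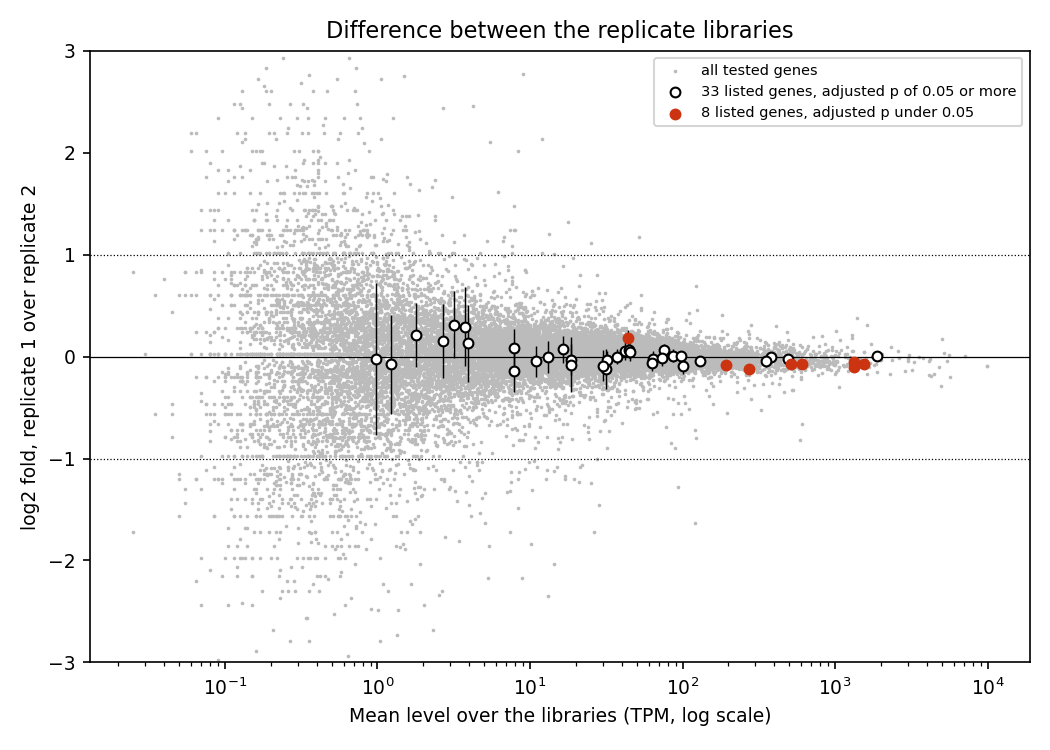
Log2 fold of replicate 1 over replicate 2 from counts (vertical axis) against mean TPM (horizontal axis, log) for all tested genes (grey) and the 41 listed genes with 95% exact intervals (black lines), filled where the adjusted p is under 0.05. The dotted lines mark 2-fold, 105 of the 18580 tested genes lie beyond 3 log2 units and are not drawn, and the listed gene farthest from 0, Ndrg1, is at 0.31.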

How the data were processed

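Total RNA-seq tables of 2 limb libraries, 1 group of 2 separately pooled biological replicates, were used. Text files that the authors deposited name mm10 as the build and GENCODE M4 as its annotation. No source used here names the aligner, quantifier or strand setting. The deposited expected counts are estimates for genes and for transcripts with shared reads split among them, per the file headers, and were rounded before testing. The deposited TPM values, and posterior mean TPM values beside them, are scaled by length to the same sum in each library, with spike-ins among the rows. The deposited percent values give each transcript's share of its gene, per the file headers. Spike-ins took 3.28% and 2.30% of counts over all rows (29810026 and 29938721) and stayed out of library totals.

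Genes were matched by identifier without version to GENCODE M21, on the same assembly, which gave names, coordinates and transcript types. A gene was detected at 1 TPM in both libraries, and log ratios used a pseudocount of 0.1 TPM. Libraries were compared by a two-sided exact conditional binomial test with library totals as offset, for the genes whose counts over both libraries reached 10. Calls needed an adjusted p below 0.05, counted both with a 2-fold limit and without it. With 1 group, edgeR's quasi-likelihood test has no contrast. The tests were run on simulated counts that held counting error only, so that check does not cover further spread between the real libraries. Intervals are at 95% and leave out any error other than counting, such as variation between pools and the splitting of shared reads. Molecular identifiers were not recorded. Copies were found with BLAST 2.17.0 on coding sequences, a choice made after seeing the files in place of whole transcripts. Alternatives changed the unit, threshold, pseudocount, length scaling, transcripts, copies, scaling, filter and test, and left out each replicate. The members and lists were chosen with earlier results of these data known. The rule for names took all 41 genes, the 5 highest, the lowest and the called genes of each further list, and the 5 highest copies; paralogs of the 41 genes, overlapping genes and single HIF pathway and marker genes were named after their values were seen. A few genes of the further lists are not reported here. Software was Python 3.11.15 (pandas 2.3.3, scipy 1.17.1, numpy 2.4.6, matplotlib 3.10.9) and R 4.3.3 (DESeq2 1.42.0, edgeR 4.0.16).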

Additional observations from a re-analysis of the deposited data

How the results depend on the processing

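The count of detected genes was 41 with posterior mean TPM or a limit of 0.5 TPM, 34 at a limit of 5 TPM and 39 with protein-coding transcripts only, and it was 40 and 41 without either replicate. The glycolytic sum was 7530 TPM with protein-coding transcripts only, an alternative chosen after seeing the data, against 8826 TPM. It ranged from 8576 to 9076 TPM without either replicate. Without length scaling, log2 ratios turned to -0.41 for Slc2a1 over Slc2a3, -0.19 for Pdk3 over Pdk1 and 0.27 for Slc16a1 over Slc16a3. With protein-coding transcripts only the mean turned to 0.94 for Bnip3 over Bnip3l and to -0.089 for Pdk1 over Pdk2, whose direction differed between the libraries. The Pkm M2 share ranged from 97.3% to 97.5% without either replicate and was 97.4% from counts. Without a fold limit, edgeR's exact test, with its dispersion from these same libraries, called 0 of the 41 genes higher in replicate 1 and 0 in replicate 2, and over all genes 52 and 84 in place of 1728 and 1320. The other scalings and filters called 1 gene higher in replicate 1 and between 7 and 9 higher in replicate 2. Over all genes, DESeq2 size factors gave 1435 higher in replicate 1 and 1673 higher in replicate 2, and totals with spike-ins, added after seeing the data, 1478 and 1599. No member passed 2-fold under any scaling, filter or test that was run, and none passed 1.5-fold with library totals. Leaving out a replicate leaves no comparison between libraries. No paired analysis was possible because there is 1 group. Car9, at 31.5 and 32.6 counts, is limited by depth, with an interval of log2 -0.77 to 0.72 between libraries.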
